A study of Mus musculus with 8 samples.

Results

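S100 genes encode small calcium-binding proteins, and 8 of them were followed through mouse liver: S100a1, S100a4, S100a6, S100a8, S100a9, S100a10, S100a11 and S100a13. The 8 symbols were picked from the family with earlier results of these data known, and their rows were found by symbol. The table holds 14 S100 genes in all, so these are not the whole family as measured. They make up 8 of the 17164 genes in the table, all 8 had an FPKM (fragments scaled to transcript length and library size) of at least 1 in every library, and all 8 were among the 11606 genes tested. Their Entrez gene IDs are 20193 (S100a1), 20198 (S100a4), 20200 (S100a6), 20201 (S100a8), 20202 (S100a9), 20194 (S100a10), 20195 (S100a11) and 20196 (S100a13).

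Whole liver of male C57BL/6 mice was sequenced at 22 weeks of age, in 4 groups of 2 livers each, picked at random from 6 mice per group. Control mice received saline at 2 weeks, and no CCl4 is listed for them. Model mice (labelled DEN+CCl4) received diethylnitrosamine (DEN, 0.67%), a liver carcinogen, into the abdomen at 2 weeks, and then carbon tetrachloride (CCl4, 20% in olive oil), a liver toxin, from 8 weeks until sacrifice. The DWYG-M and DWYG-H mice received DEN and CCl4 like the model mice, and from 17 weeks also capsules of the herbal medicine Diwu Yanggan (DWYG) at 1 or 2 multiples of the clinical equivalent dose. DEN and CCl4 were thus given together in every group but control and cannot be told apart, and DWYG was never given without them. Each library came from whole tissue, so for every gene below fewer cells of a type and less RNA per cell cannot be told apart.

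An S100 protein usually works as a dimer in which calcium opens a surface that then grips a target protein. S100A8 and S100A9 form calprotectin, an abundant protein of neutrophils and monocytes that is also released and acts as a danger signal. S100A10 and S100A11 bind annexins at membranes, S100A4 and S100A6 mark migrating fibroblasts and immune or proliferating cells, and S100A1 and S100A13 are best known from muscle calcium handling and from protein export, respectively.

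All 8 genes lie on chromosome 3 in the RefSeq mouse annotation (GRCm38.p6, whereas the files use GRCm39). S100a1 and S100a13 overlap on opposite strands, S100a8 and S100a9 are next to each other, and S100a11 and S100a10 are neighbours farther along the chromosome. RefSeq promoter windows (250 bases before to 50 after the start) were found for 7 of the 8 members, S100a10 being the exception. Both strands of each window were searched for 5 short motifs. The TATA box was searched as TATAAA and the AP-1 element of stress-induced genes as TGANTCA. For C/EBP and PU.1, factors of myeloid cells, the letters were TTGCNNAA and GAGGAA, and for STAT factors TTCNNNGAA. Shown are the 4 members with a match in the stretch before the first annotated start. Capitals mark the matched letters, and each stretch is written 5′ to 3′ on the strand of the gene, with coordinates of GRCm38.p6.
S100a8, chr3:90668821-90668977, plus strand: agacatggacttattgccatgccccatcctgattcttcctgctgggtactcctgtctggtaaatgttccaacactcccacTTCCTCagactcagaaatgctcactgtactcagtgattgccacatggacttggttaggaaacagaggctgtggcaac
S100a9, chr3:90695722-90695971, minus strand: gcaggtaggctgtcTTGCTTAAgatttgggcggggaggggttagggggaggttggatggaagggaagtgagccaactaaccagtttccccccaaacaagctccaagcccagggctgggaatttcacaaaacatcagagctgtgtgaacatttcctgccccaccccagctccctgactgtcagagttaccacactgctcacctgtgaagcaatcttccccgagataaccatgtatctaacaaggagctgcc
S100a4, chr3:90603520-90603769, plus strand: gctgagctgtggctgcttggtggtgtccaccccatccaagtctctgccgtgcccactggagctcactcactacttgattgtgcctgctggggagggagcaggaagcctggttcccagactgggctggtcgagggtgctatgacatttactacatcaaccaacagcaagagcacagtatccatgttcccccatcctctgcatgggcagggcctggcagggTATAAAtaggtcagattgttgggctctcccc
S100a11, chr3:93520246-93520487, plus strand: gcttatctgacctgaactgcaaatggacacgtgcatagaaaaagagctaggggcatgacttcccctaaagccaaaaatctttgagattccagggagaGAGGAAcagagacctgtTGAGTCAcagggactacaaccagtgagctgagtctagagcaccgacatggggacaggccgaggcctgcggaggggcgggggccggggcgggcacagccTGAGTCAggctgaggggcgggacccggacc

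The S100a8 stretch holds GAGGAA read on the opposite strand, with its first base at position -170 from the start, and the S100a9 stretch holds a C/EBP match at -236. TATAAA stands at -31 in S100a4 and, outside the stretches shown, at -30 in S100a8 and at the start itself in S100a9. Also outside those stretches, GAGGAA read on the opposite strand stands at -36 in S100a8 and at 19 in S100a4. The AP-1 letters occur at -136 and -38 in S100a11, with GAGGAA at -153. Over 32851 promoter windows of 300 bases, 7.81% held the AP-1 letters, 13.6% TATAAA, 10.8% the C/EBP letters and 28.3% GAGGAA. The STAT letters, held by 8.3% of windows, were found in none of the 7. No match of any of the 5 was found in the windows of S100a1, S100a6 and S100a13. A match describes the letters only, since binding was not measured.

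Libraries held between 17345627 and 19191382 expected counts, and replicates correlated across genes at r = 0.984 in control, 0.9605 in model, 0.981 in DWYG-M and 0.9783 in DWYG-H. In model against control, edgeR's quasi-likelihood test called 2582 genes at an adjusted p under 0.05, 68% of them higher. On log2(FPKM + 1) with limma 91.7% of the calls were higher, and on log2(TPM + 1) 97.5%. The median gene moved by 0.21 and 0.50 (log2) on those scales, against -0.01 with TMM scaling. Fold changes below are log2 values from edgeR with TMM scaling and the 95% interval from that model, and levels are in FPKM.

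Model livers held more transcript of 6 of the 8 S100 genes than control livers, and less of 1. S100a9, S100a11, S100a8, S100a4, S100a6 and S100a10 rose by between 0.90 and 3.50 on the log2 scale, S100a1 fell, and S100a13 did not pass the test. That makes 7 of 8 called, against 22.2% of all genes tested. For the direction, 6 of 8 were called higher against 15.1% of genes, and 1 lower against 7.12%. The members' median log2 fold change was 2.86, beside -0.01 for all genes tested. The 2 model libraries lay above the 2 control libraries for 6 members, as they did for 47.1% of genes, and below them for S100a1 and S100a13, as for 11.9% of genes. At an unadjusted p under 0.05 all 8 members passed, as did 35.9% of genes.

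**Figure D1:**
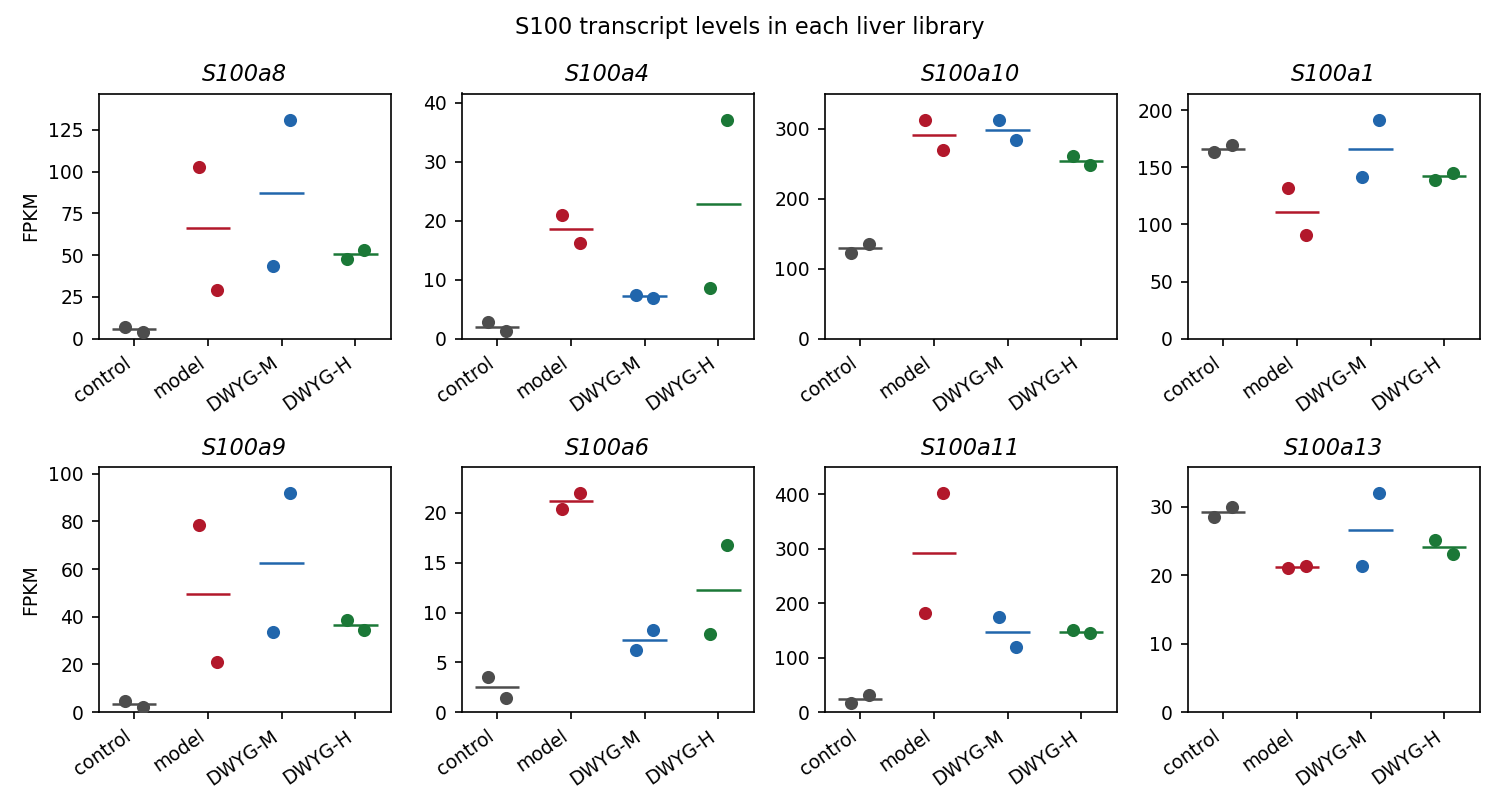
Level of each S100 gene in FPKM (vertical axis, linear, starting at 0) in the 4 groups (horizontal axis), with 1 point per library and a line at the group mean of 2. S100a8 and S100a9 share a pattern across libraries, S100a4 has 1 high DWYG-H library at 37.13, S100a11 peaks at 402.02 in 1 model library, and control is the lowest group for every gene but S100a1 and S100a13.

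The calprotectin chains were scarce in control liver. S100a8 stood at 7.18 and 4.07 FPKM in the control livers, 103.03 and 29.19 in the model livers, 43.74 and 131.07 under DWYG-M and 47.72 and 53.18 under DWYG-H. Both control libraries lay far below all 6 others, and the model and DWYG-M libraries each included 1 high and 1 lower liver. S100a8 rose in model by 3.23 (SE 0.78, interval 1.44 to 5.02, edgeR adjusted p = 0.023).

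S100a9 stood at 4.74 and 2.30 FPKM in the control livers, 78.30 and 21.07 in the model livers, 33.53 and 91.79 under DWYG-M and 38.64 and 34.54 under DWYG-H. The same 2 livers, model replicate 1 and DWYG-M replicate 2, were highest for both chains, and control did not overlap any other group. S100a9 rose in model by 3.50 (SE 0.75, interval 1.77 to 5.22, edgeR adjusted p = 0.0154). Between-liver spread within the model group was wide, 66.1 ± 52.2 FPKM for S100a8 and 49.7 ± 40.5 for S100a9 (SD, n = 2).

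The calls for the chains rested on few libraries. Leaving out 1 library leaves 1 liver in a group, and in most such fits against control fewer of all genes were called too. Without control replicate 1, control replicate 2 or model replicate 1 the adjusted p of S100a8 was 0.0911, 0.13 and 0.0699, and its fold change without model replicate 1 was 2.28. Without control replicate 1 or control replicate 2 the adjusted p of S100a9 was 0.0655 and 0.104, and leaving out a model liver gave fold changes of 2.46 (replicate 1) and 4.09 (replicate 2).

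The ratio of S100a8 to S100a9 in FPKM moved little while their levels moved a lot. It was 1.51 and 1.77 in the control livers, 1.32 and 1.39 in the model livers, 1.30 and 1.43 under DWYG-M and 1.23 and 1.54 under DWYG-H. The control ratios rest on few counts, 11 and 6 for S100a8 and 17 and 8 for S100a9. Over the same libraries the summed level of both chains ran from 6.37 in control replicate 2 to 222.9 in DWYG-M replicate 2. Among 6966 genes with a mean FPKM of at least 5, S100a9 had the profile most like that of S100a8 (r = 0.9982 over 8 libraries on log2(FPKM + 1)). Next for S100a8 came Maf1 (r = 0.9792), a repressor of RNA polymerase III, and Orm3 (r = 0.9790), of the acute-phase orosomucoid family. These points share livers and depth, so the values of r are descriptions.

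Both S100a4 and S100a6 were low in control and higher in model, without the wide spread between model livers seen for calprotectin. S100a4, also known as fibroblast-specific protein and found in fibroblasts, macrophages and lymphocytes, had 2.82 and 1.30 FPKM in the control livers, 20.96 and 16.28 in the model livers, 7.43 and 6.94 under DWYG-M and 8.62 and 37.13 under DWYG-H. DWYG-H replicate 2 was the highest of all 8 libraries, while DWYG-H replicate 1 lay beside the DWYG-M livers. S100a4 rose in model by 2.89 (SE 0.74, interval 1.18 to 4.60, edgeR adjusted p = 0.0282). Control values rest on 9 and 4 counts, and leaving out any 1 of the 4 libraries gave adjusted p-values of 0.0902 (control replicate 1), 0.153 (control replicate 2), 0.0539 (model replicate 1) and 0.0685 (model replicate 2), with a fold change of 3.48 without control replicate 1.

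S100a6, or calcyclin, is found in dividing cells, fibroblasts and epithelia and binds the ubiquitin ligase adaptor encoded by Cacybp. It stood at 3.53 and 1.47 FPKM in the control livers, 20.36 and 21.98 in the model livers, 6.23 and 8.22 under DWYG-M and 7.86 and 16.76 under DWYG-H. The 2 model livers were close to each other and above every other library, and control was below all of them. S100a6 rose in model by 2.83 (SE 0.47, interval 1.73 to 3.92, edgeR adjusted p = 0.00612), by 3.52 without control replicate 1, and by 2.35 with an adjusted p of 0.0521, no longer a call, without control replicate 2.

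The genes most like S100a4 over the 8 libraries were Pomt1 (r = 0.9907), which encodes a protein O-mannosyltransferase, Ssrp1 (0.9777), a subunit of the histone chaperone FACT, and Cnn2 (0.9750), an actin-binding calponin. Those most like S100a6 were Sbno2 (r = 0.9899), Cyba (0.9896), the small subunit of the phagocyte NADPH oxidase, and Gvin1 (0.9842), an interferon-inducible GTPase. S100a4 and S100a6 themselves correlated at r = 0.94, and S100a1 and S100a13 at 0.79.

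In each of the 6 injured livers an annexin-binding member was the most abundant of the 8 S100 transcripts. S100a10, the p11 chain that joins annexin A2 in a membrane-bound tetramer, had 122.94 and 135.50 FPKM in the control livers, 312.98 and 269.14 in the model livers, 312.90 and 284.44 under DWYG-M and 260.67 and 248.38 under DWYG-H. Both control livers were low and all 6 others were above them in a narrow range. S100a10 rose in model by 0.90 (SE 0.15, interval 0.56 to 1.25, edgeR adjusted p = 0.00576), the smallest rise among the 6 members called higher, and its call held in all 13 alternatives run (adjusted p up to 0.0474).

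S100a11, or calgizzarin, binds annexins and is found in many epithelia. It stood at 17.72 and 30.74 FPKM in the control livers, 182.18 and 402.02 in the model livers, 174.25 and 118.83 under DWYG-M and 151.02 and 144.74 under DWYG-H. Model replicate 2 was far above the rest, model replicate 1 was close to the treated livers, and control was again below every other library. S100a11 rose in model by 3.38 (SE 0.49, interval 2.24 to 4.52, edgeR adjusted p = 0.00368), with the call held in all 13 alternatives (adjusted p up to 0.0329). Its size was 2.52 when model replicate 2 was left out and 3.93 when model replicate 1 was. Its expected counts were fractional in all 8 libraries (57.97 in control replicate 1, for example), so part of its reads may have been shared with a near-identical copy and its level is uncertain to that extent.

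Relative to S100a10, S100a11 went from 0.144 and 0.227 in control to 0.582 and 1.49 in model, with 0.557 and 0.418 under DWYG-M and 0.579 and 0.583 under DWYG-H. Anxa2, which encodes the annexin partner of S100A10, stood at 10.12 and 11.50 FPKM in the control livers, 98.14 and 213.51 in the model livers, 110.47 and 62.17 under DWYG-M and 101.80 and 78.49 under DWYG-H. Its ratio to S100a10 went from 0.0823 and 0.0849 in control to 0.314 and 0.793 in model, and model replicate 2 was highest for this ratio as for S100a11. The profiles most like S100a11 were Man2b2 (r = 0.9946), a lysosomal mannosidase, Anxa5 (0.9937), another annexin, and Ptgr1 (0.9923), a prostaglandin reductase. For S100a10 they were Minpp1 (r = 0.9895), an inositol phosphate phosphatase, Pepd (0.9888), a dipeptidase, and Cyp20a1 (0.9849).

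S100a1 and S100a13 went the other way. S100a1, which tunes calcium-handling proteins in muscle, was the most abundant member in control liver at 162.91 and 169.11 FPKM, with 131.46 and 90.85 in the model livers, 141.03 and 191.51 under DWYG-M and 138.78 and 145.15 under DWYG-H. The model livers were the 2 lowest, and only DWYG-M overlapped control. S100a1 fell in model by 0.86 (SE 0.20, interval -1.31 to -0.40, edgeR adjusted p = 0.0198). The call was lost on each of the 3 log scales tested with limma (adjusted p = 0.0862, 0.0843 and 0.305), with a log2 difference of -0.28 on log2(TPM + 1), and also without control replicate 1 (0.0571), control replicate 2 (0.0955) or model replicate 2 (0.0839).

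S100a13, which takes part in the export of FGF1 and interleukin-1 alpha from cells, stood at 28.54 and 29.98 FPKM in the control livers, 20.99 and 21.28 in the model livers, 21.33 and 31.94 under DWYG-M and 25.17 and 23.01 under DWYG-H. The model livers lay below every other library, although by little. Its log2 difference in model was -0.73 (SE 0.23, interval -1.27 to -0.19), with an edgeR adjusted p of 0.0592. The ratio of S100a1 to S100a13 ran from 4.27 in model replicate 2 to 6.61 in DWYG-M replicate 1. Since the 2 genes overlap on opposite strands and no source used here says whether counting used strand, reads of one may have been counted for the other. The genes most like S100a1 were Uqcrc2 (r = 0.9901), a core subunit of mitochondrial complex III, Gcdh (0.9894), the mitochondrial glutaryl-CoA dehydrogenase, and Ndrg2 (0.9890), and those most like S100a13 were Mlycd (0.9663), malonyl-CoA decarboxylase, Mrnip (0.9655) and Slc25a10 (0.9595), the mitochondrial dicarboxylate carrier.

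**Figure D2:**
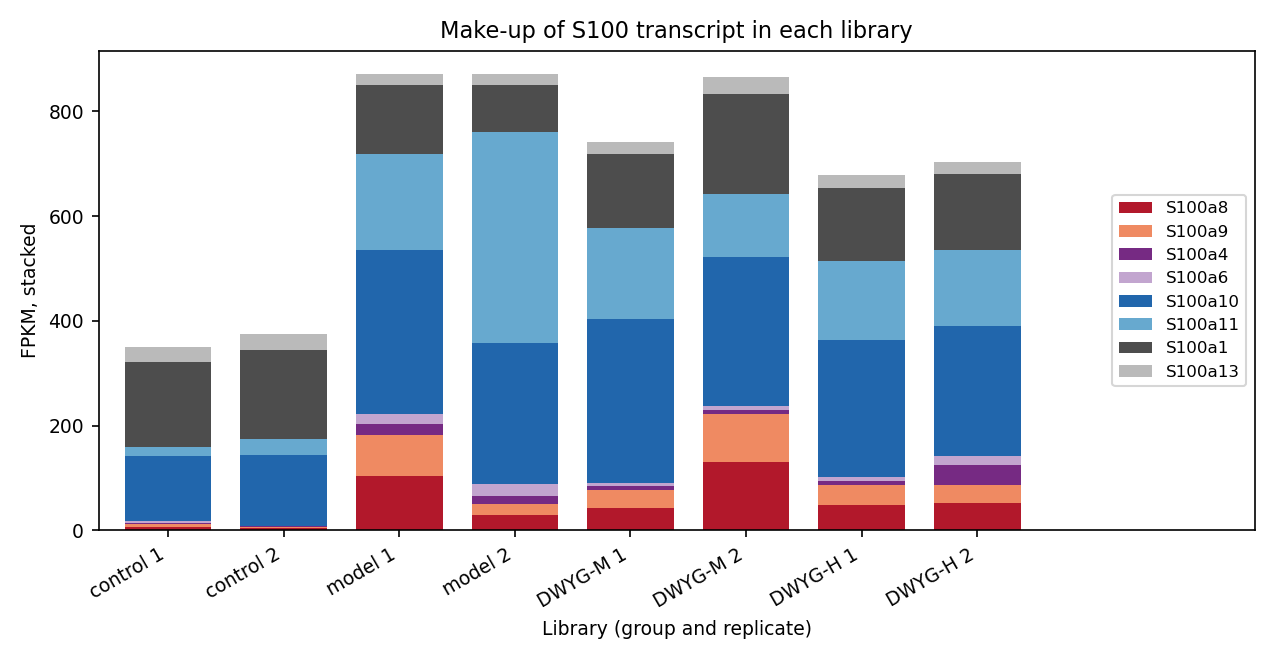
FPKM of the 8 S100 genes stacked for each of the 8 libraries (bars start at 0, colours mark genes). The sum is 350.4 and 374.5 in control and 678.5 to 871.8 in the other 6 libraries, and S100a1 gives way to S100a10 or S100a11 as the largest share.

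Summed over the 8 genes, the S100 level was 350.4 and 374.5 FPKM in the control livers, 870.3 and 871.8 in the model livers, 740.4 and 864.7 under DWYG-M and 678.5 and 702.9 under DWYG-H. S100a1 gave the largest share in both control livers (46.5% and 45.2%). S100a10 was the largest in each injured liver but model replicate 2, where S100a11 made up 46.1%. FPKM is scaled by library, and the sum moves with that scale.

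**Figure D3:**
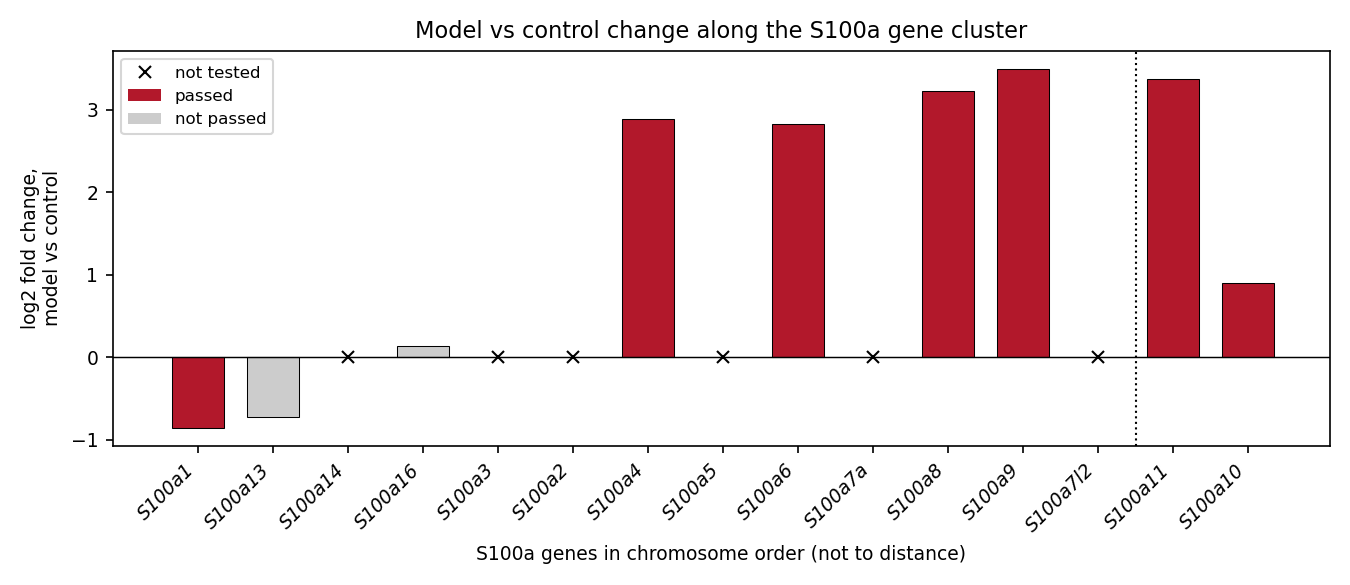
Log2 fold change of model against control (vertical axis) for S100a genes in chromosome order (horizontal axis, not to distance); crosses are genes with no test and the dotted line marks a gap that holds 54 protein-coding genes. S100a1 and S100a13 at one end are at -0.86 and -0.73, S100a16 at 0.13, and the members from S100a4 onward are at 0.90 to 3.50.

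Along the chromosome, the members with a negative difference, S100a1 and S100a13, stood at one end of the family, and the 6 that rose followed from S100a4 on. S100a16, which is no member, lies between them and had 21.23 and 23.36 FPKM in control and 26.86 and 31.73 in model, with a log2 difference of 0.13 (SE 0.19, edgeR adjusted p = 0.662) that turned to -0.00 without control replicate 1 and -0.11 without model replicate 2. On log2(TPM + 1), a scale on which the median gene also moved up, limma called S100a16 higher than control in model (0.69, adjusted p = 0.00606), DWYG-M (0.75, 0.0134) and DWYG-H (0.50, 0.0335). S100g, the vitamin D-dependent calbindin, stood at 0.35 and 0 FPKM in the control livers, 38.20 and 3.16 in the model livers, 0.72 and 0.70 under DWYG-M and 2.58 and 1.33 under DWYG-H. One model liver held most of its reads. It was called in model against control (edgeR adjusted p = 0.0237, up to 0.127 in the alternatives). The ratio of its depth-scaled counts was 94.1 (exact counting interval 16.6 to 3747, on 120 counts against 1), which covers counting error only and not the spread between livers. The call was lost when only these 2 groups were fitted (adjusted p = 0.0524) and without control replicate 1 (0.0962), control replicate 2 (0.127) or model replicate 1 (0.0691).

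Genes that S100 proteins bind, signal through or help export were examined as a list of 19, of which 18 were tested. In model against control 9 rose and 1 fell, with a median log2 fold change of 1.08, beside 15.1% of all genes called higher and 7.12% lower. The gene that fell was Fgf1, a growth factor exported with S100A13, at 20.86 and 23.44 FPKM in the control livers and 13.22 and 8.25 in the model livers (log2 fold change -1.36, SE 0.21, edgeR adjusted p = 0.0046), named after its values were seen. Plat, the tissue plasminogen activator that S100A10 can hold at the cell surface, rose by 4.97 (SE 0.30, edgeR adjusted p = 0.000362), from 0.23 and 0.16 FPKM in control to 6.77 and 7.63 in model. The other leading genes were Anxa1, which binds S100A11 and rose by 2.18 (SE 0.17), Ahnak, a scaffold bound by S100A10 with annexin A2, which rose by 1.60 (SE 0.20), and Anxa2, which rose by 3.62 (SE 0.48). In DWYG-M against control 5 rose and 0 fell, beside 4.35% of genes called higher, and in DWYG-H against control 7 rose and 0 fell, beside 6.59%.

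In the comparisons of the treated groups with control, which use the same 2 control livers as the model comparison, S100 genes were again mostly higher. In DWYG-M, 4 of 8 members were called, all higher, against 4.95% of genes called in either direction, 4.35% called higher and 0.603% called lower. Both DWYG-M livers lay above both control livers for 6 members, as for 49.2% of genes, and below them for 0, beside 7.98% of genes. The unadjusted p was under 0.05 for 5 members and 19.2% of genes. S100a9 rose by 3.92 (SE 0.75, edgeR adjusted p = 0.0262), S100a8 by 3.70 (SE 0.77, 0.0357), S100a11 by 2.33 (SE 0.48, 0.0354) and S100a10 by 0.97 (SE 0.15, 0.0131). S100a6 differed by 1.31 (SE 0.49, adjusted p = 0.197) and S100a4 by 1.53 (SE 0.79, 0.349) without passing.

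In DWYG-H, 5 of 8 members were called, all higher, against 7.69% of genes in either direction, 6.59% higher and 1.09% lower. Both DWYG-H livers lay above both control livers for 6 members and 46.9% of genes, and below them for S100a1 and S100a13 and 10.3% of genes. The unadjusted p was under 0.05 for 6 members and 23.8% of genes. S100a4 rose by 3.25 (SE 0.74, edgeR adjusted p = 0.0366), S100a9 by 3.16 (SE 0.75, 0.0427), S100a11 by 2.39 (SE 0.48, 0.0253), S100a6 by 2.09 (SE 0.48, 0.038) and S100a10 by 0.76 (SE 0.15, 0.0221). S100a8 differed by 2.96 (SE 0.78, adjusted p = 0.0609). S100a1 and S100a13 passed in neither treated group, with adjusted p-values of 0.223 to 0.564.

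No call of a member in DWYG-M or DWYG-H held without control replicate 1 or control replicate 2, nor did most calls over all genes. Such a fit leaves 1 liver in the control group. S100a8 was 4.32 without DWYG-M replicate 1 and 2.62 without DWYG-M replicate 2, and S100a9 2.97 without DWYG-M replicate 2. Without DWYG-M replicate 2 the adjusted p was 0.101 for S100a8, 0.0664 for S100a9 and 0.0534 for S100a11, and without DWYG-M replicate 1 it was 0.0873 for S100a10 and 0.168 for S100a11. In DWYG-H, leaving out replicate 2 took S100a4 to 1.83 (adjusted p = 0.11) and S100a6 to 1.45 (0.173), while leaving out replicate 1 took S100a4 to 3.94 and leaving out control replicate 1 gave 3.84 and 2.78. S100a9, S100a10 and S100a11 lost their calls in DWYG-H without replicate 1 (0.133, 0.106 and 0.0875) and without replicate 2 (0.112, 0.08 and 0.0783). With DESeq2 or limma, S100a8 was also called in DWYG-H.

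**Figure D4:**
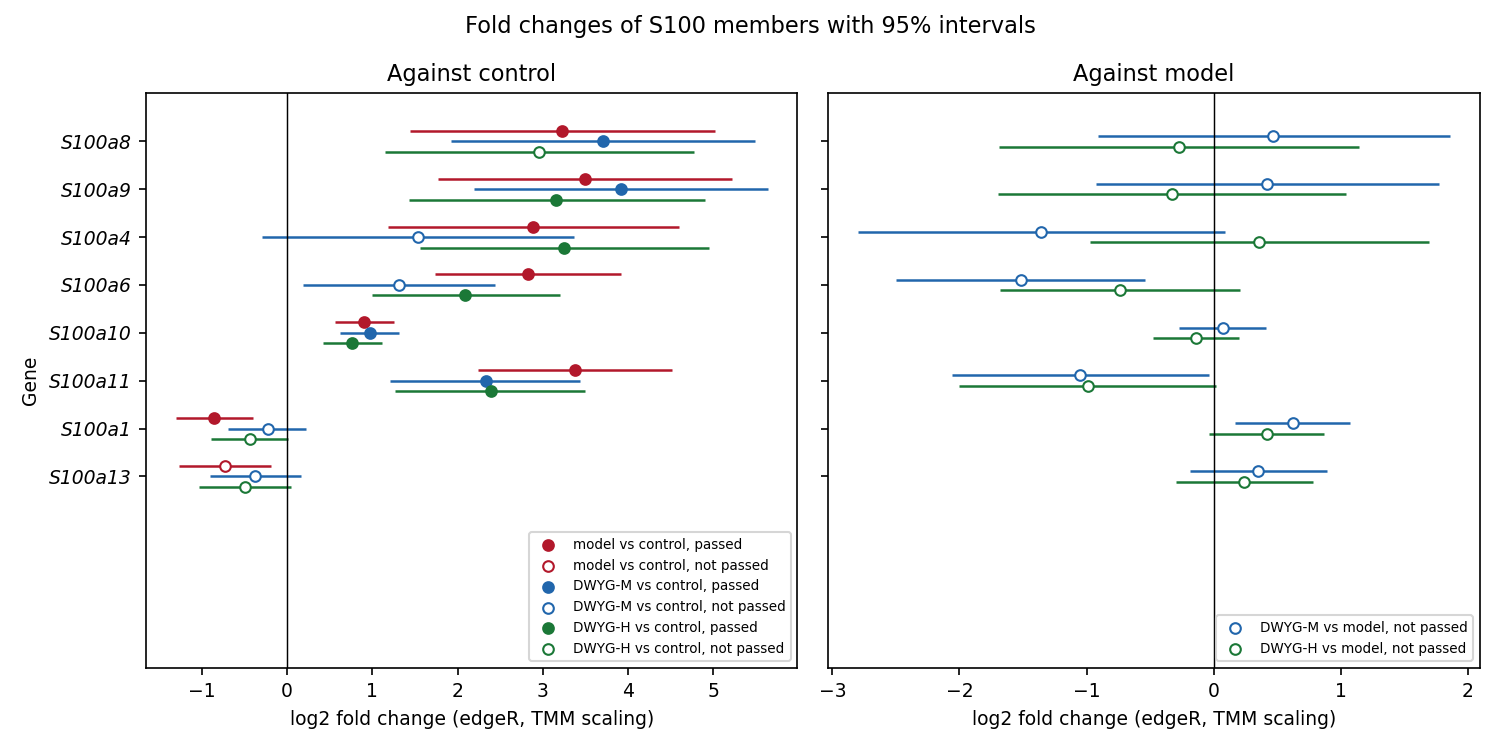
Log2 fold changes (horizontal axes) of the 8 S100 genes against control (left) and against model (right), as points with 95% intervals from the edgeR model of 8 libraries. Filled points passed an adjusted p under 0.05 and open points did not: 7, 4 and 5 genes passed on the left and 0 on the right.

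Against the model group, none of the 8 members was called by edgeR in either treated group. In DWYG-M 0 of 8 members passed, where 0.00862% of genes did, and in DWYG-H 0 of 8, where 0% did. DESeq2 also called 0 members in both, while it called 206 of all genes in DWYG-M and 120 in DWYG-H. Each limma fit called 0 members and at most 3 of all genes. S100g, outside the 8, differed from model by -4.68 in DWYG-M (edgeR adjusted p = 0.255) and by -3.25 in DWYG-H (0.465). In DWYG-M it was called by DESeq2 (-4.75, adjusted p = 0.012) and by edgeR without model replicate 2 (-5.54, 0.025), and it was -2.21 without model replicate 1, the liver with most of its reads. At an unadjusted p under 0.05 there were 3 members in DWYG-M (S100a1, S100a6 and S100a11, beside 12.6% of genes) and 0 in DWYG-H (beside 8.49%).

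S100a6 was 6.23 and 8.22 FPKM in DWYG-M beside 20.36 and 21.98 in model, without overlap, and its log2 difference was -1.52 (interval -2.50 to -0.54, edgeR adjusted p = 0.27). S100a11 differed by -1.05 in DWYG-M (interval -2.06 to -0.04, adjusted p = 0.387) and by -0.99 in DWYG-H (-2.00 to 0.02, 0.593). Without model replicate 2 these fell in size to -0.19 and -0.13, and without model replicate 1 they were -1.58 and -1.53. S100a1 was above both model livers in all 4 treated livers, with differences of 0.62 (0.17 to 1.07, adjusted p = 0.294) and 0.42 (-0.04 to 0.87, 0.612). Of all 8 members, 3 did not overlap on the lower side in DWYG-M (S100a4, S100a6 and S100a11, beside 25.6% of genes) and 3 in DWYG-H (S100a6, S100a10 and S100a11, beside 23.2%). S100a1 and S100a13 did not overlap on the higher side in either, beside 13.5% and 10.6% of genes.

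The calprotectin genes showed no called difference from model. S100a8 differed by 0.47 in DWYG-M (interval -0.91 to 1.86) and by -0.27 in DWYG-H (-1.69 to 1.14), and S100a9 by 0.42 (-0.93 to 1.77) and -0.33 (-1.70 to 1.04). Each of these intervals spans more than 2 log2 units. For S100a10 the intervals were narrow, -0.27 to 0.41 in DWYG-M and -0.48 to 0.20 in DWYG-H. S100a4 differed by -1.36 (-2.80 to 0.09) in DWYG-M and by 0.36 (-0.97 to 1.69) in DWYG-H. Without DWYG-H replicate 2 the latter was -1.06.

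The dose groups were also compared with each other, and 0 of 8 members passed where 0% of genes did. At an unadjusted p under 0.05 there was 1 member, S100a4, beside 1.66% of genes. It stood at 7.43 and 6.94 FPKM under DWYG-M and 8.62 and 37.13 under DWYG-H, a log2 difference of 1.72 (interval 0.28 to 3.16, edgeR adjusted p = 1). Without DWYG-H replicate 2 it was 0.30, and without DWYG-H replicate 1 it was 2.41.

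**Figure D5:**
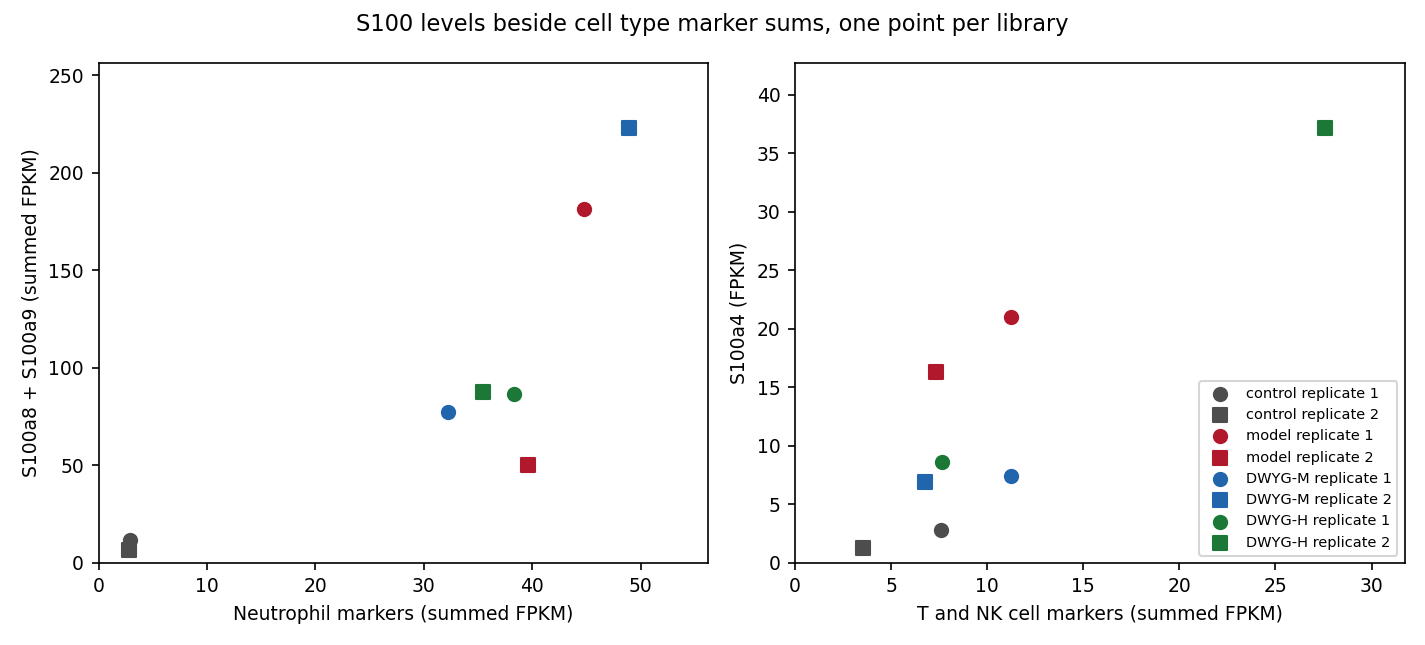
Left, summed FPKM of S100a8 and S100a9 (vertical) beside the summed FPKM of 18 neutrophil markers (horizontal); right, FPKM of S100a4 beside the summed FPKM of 9 T and NK cell markers; 1 point per library on linear axes. The control livers sit at 2.91 and 2.84 on the left, and DWYG-H replicate 2 stands apart on the right at 27.59 and 37.13. At marker sums of 11.22 and 11.25, S100a4 was 20.96 in model replicate 1 and 7.43 in DWYG-M replicate 1.

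Markers of the cells that carry S100 proteins moved between the same libraries. The summed level of 18 neutrophil markers was 2.91 and 2.84 FPKM in the control livers, 44.8 and 39.63 in the model livers, 32.23 and 48.91 under DWYG-M and 38.33 and 35.5 under DWYG-H, beside the rise of S100a8 and S100a9. Of 9 tested, 4 rose in model, 3 in DWYG-M and 3 in DWYG-H, beside 15.1%, 4.35% and 6.59% of all genes called higher. The defining markers Ly6g and Mpo were at 0 in both control livers and at most 0.32 FPKM elsewhere, and Elane reached 1.35. Pglyrp1, a granule protein of neutrophils, was listed at 0 in both control livers and at 8.09 and 22.12 FPKM in model. Pglyrp1 was the largest contributor to the sum over the 8 libraries together, though not in every single library. Without it, a sum taken after its values were seen, the other neutrophil markers were at 2.91 and 2.84 FPKM in the control livers, 36.71 and 17.51 in the model livers, 20.43 and 42.79 under DWYG-M and 29.79 and 28.87 under DWYG-H. Model replicate 1 and DWYG-M replicate 2 were highest with or without Pglyrp1, as they were for calprotectin. The summed calprotectin levels in the model livers were 181.3 and 50.26. Single markers differed from each other. Ngp was 2.57 and 0.87 FPKM in the model livers and 3.94 and 10.9 under DWYG-M. Prtn3 was 5.96 and 6 in the model livers and 2.98 and 2.58 under DWYG-M.

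The summed monocyte markers stood at 21.84 and 13.46 FPKM in control and 77.01 and 63.24 in model. Under DWYG-M they were at 43.69 and 50.33, and under DWYG-H at 47.18 and 65.98. Of 7 tested, 5 were called higher in model, beside 15.1% of all genes. Against control, 5 were called higher in DWYG-M and 6 in DWYG-H, beside 4.35% and 6.59% of all genes. Most of the monocyte sum was Plac8 (17.65 and 11.17 in control, 53.76 and 45.46 in model). Macrophage and Kupffer cell markers split, 3 rising and 2 falling of 12, beside 15.1% of all genes called higher and 7.12% lower. The 3 that rose were Gpnmb (log2 fold change 8.07, SE 0.44), Trem2 (4.48, SE 0.38) and Cd68 (1.00, SE 0.15). The 2 that fell, named after their values were seen, were the resident macrophage receptor genes Timd4 (log2 fold change -2.56, SE 0.33) and Cd163 (-2.50, SE 0.40). T and NK cell markers, at 3.56 to 11.25 FPKM in 7 livers, reached 27.59 in DWYG-H replicate 2, the liver with the highest S100a4. There Cd3d, Cd3e and Cd3g were 2.69, 3.15 and 5.70 FPKM, beside 0.23, 0.67 and 0.83 in DWYG-H replicate 1. Of 3 T and NK cell markers tested, 0 were called in model against control, beside 15.1% of all genes called higher. Their sum was 11.22 in model replicate 1 and 11.25 in DWYG-M replicate 1, where S100a4 was 20.96 and 7.43. B and plasma cell markers had 2 of 4 called higher in model, beside 15.1% of all genes, and were also highest in DWYG-H replicate 2 (40.05).

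Stellate cell and fibroblast markers, a source of S100a4 and S100a6 in scarred tissue, summed to 123.8 and 125.2 FPKM in the control livers, 464.4 and 440.1 in the model livers, 282.3 and 334.3 under DWYG-M and 276.1 and 295.2 under DWYG-H. In model 11 of 14 rose and 0 fell, beside 15.1% of all genes called higher and 7.12% lower. In DWYG-M and DWYG-H against control 8 and 8 rose, beside 4.35% and 6.59% of all genes. Cholangiocyte markers, of the bile duct epithelium that expresses S100a6 and S100a11, summed to 49.25 and 46.33 in the control livers, 338 and 472.3 in the model livers, 229.1 and 195.6 under DWYG-M and 242.9 and 288 under DWYG-H. Most of that sum was Spp1, which encodes osteopontin, also a product of macrophages and injured epithelium, at 38.40 and 33.71 in the control livers, 293.03 and 430.36 in the model livers, 211.57 and 174.92 under DWYG-M and 228.94 and 268.26 under DWYG-H. Without Spp1, a sum taken after its values were seen, the other 9 markers were at 10.85 and 12.62 in the control livers, 44.94 and 41.97 in the model livers, 17.5 and 20.65 under DWYG-M and 13.97 and 19.79 under DWYG-H. In model 8 of 9 tested rose, beside 15.1% of all genes called higher. Among them were Spp1 (log2 fold change 3.08, SE 0.27), Krt7 (3.44, SE 0.48), Krt19 (3.21, SE 0.50) and Epcam (2.73, SE 0.32). In DWYG-M and DWYG-H against control 2 and 1 were called higher, beside 4.35% and 6.59% of all genes. The stellate sum and the cholangiocyte sum, with or without Spp1, were highest in the model livers, as were S100a6 and S100a11. Elsewhere the levels parted. S100a6 was 7.86 and 16.76 FPKM under DWYG-H, beside stellate sums of 276.1 and 295.2. S100a11 was 182.18 in model replicate 1 and 174.25 in DWYG-M replicate 1. The cholangiocyte sums without Spp1 were 44.94 and 17.5 in those livers. Endothelial markers had 2 of 8 called higher in model, beside 15.1% of all genes, and of 10 hepatocyte markers 0 rose and 1 fell (Cyp2e1, log2 fold change -2.52, SE 0.40), beside 7.12% of all genes called lower, with the albumin gene taking 5.195% to 10.5% of the counts of each library. The part of any of these cell types in the S100 differences was not tested.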

How the data were processed

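Total RNA of whole liver was made into libraries with the SMART-Seq mRNA LP kit, per the labels' protocols, and reads were placed on GRCm39, as the submitters' processing notes list it. Which aligner, counter and annotation served, and whether strand was used, is not given in the sources here. Per the file headers, the authors deposited a read count, an FPKM (scaled to gene length and library size) and a TPM value per gene and library. Since 89.83% to 91.49% of the deposited counts per library were whole within 0.005 and the rest fractional, the authors' values were handled like expected counts and rounded. A further 8 normalized columns and 16 group averages were not used.

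The 11606 genes that reached an FPKM of 1 in 2 or more libraries were tested with edgeR 4.0.16 (quasi-likelihood test, TMM scaling) in R 4.3.3, in 1 model of 4 groups over 8 libraries with 4 residual degrees of freedom and Benjamini-Hochberg adjustment over all genes tested; a call is an adjusted p under 0.05. The edgeR fit of model against control was tested on simulated data. Alternatives were DESeq2 1.42.0, limma 3.58.1 on log2 values with a pseudocount of 1 or 0.1, other scalings and filters, a replicate block and leaving out each library. All 8 members, every other S100 gene reaching an FPKM of 1, at most 4 genes of each list by smallest p (and the defining markers), and the 3 most alike genes per member are named; Anxa5 is named as one of the latter. The members and lists were chosen with earlier results of these data known.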

Additional observations from a re-analysis of the deposited data

How the results depend on the processing

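There were 2 livers per group, 4 residual degrees of freedom and counts as low as 4 for S100a4 in control. In the comparisons with control, the intervals of S100a4, S100a6, S100a8, S100a9 and S100a11 spanned more than 2 log2 units. Of 624 values of the 8 members under the alternatives, 544 kept their direction and side of the threshold, 53 no longer passed, 8 newly passed and 19 changed sign. The count of members called in model against control (7) was 6 to 8 under the other tools, scalings, filters and blocks. All genes called there numbered 1669 to 5448, beside 2582 in the main fit. In DWYG-M against control (4) it was 2 to 5, beside 507 to 2820 of all genes. In DWYG-H against control (5) it was 2 to 6, beside 856 to 3369 of all genes. In the remaining 3 comparisons it was 0 under those alternatives. Leaving out a library leaves 1 liver in a group, and most such fits against control called fewer members and fewer of all genes. With the replicate number as a block, 2 members were called in DWYG-M and 2 in DWYG-H against control: S100a8 (adjusted p = 0.0698) and S100a9 (0.0529) were lost in DWYG-M, and S100a4 (0.0598), S100a6 (0.0566) and S100a9 (0.0695) in DWYG-H. The labels do not say whether same-numbered livers were handled together. Same-numbered deviations from the group mean correlated across genes at -0.143 to 0.255 between groups. With 2 livers per group, these values cannot tell whether the numbers pair the livers.

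The cause of the following sign changes was not tested. S100a16 turned to -0.00 (without control replicate 1) and -0.11 (without model replicate 2) in model against control (leaving out 1 library: -0.11 to 0.35), to -0.00 (no filter) and -0.12 (without control replicate 1; range up to 0.14) in DWYG-H against control, to -0.04 (without model replicate 1) in DWYG-M against model, and to 0.12 (without model replicate 2; lowest -0.32) in DWYG-H against model. On log2(TPM + 1), where the median gene moved by 0.40 in DWYG-M and 0.41 in DWYG-H against control, S100a1 was 0.24 and S100a13 0.09 in DWYG-M and S100a1 0.05 in DWYG-H, and S100a10 was -0.03 in DWYG-M against model. In that comparison S100a8 and S100a9 were -0.10 and -0.18 without model replicate 2, and -0.61 and -0.52 without DWYG-M replicate 2, with highest values of 1.44 and 1.47 without model replicate 1. In DWYG-H against model S100a4 was -0.02, -0.04 and -0.08 on log2(FPKM + 1), log2(FPKM + 0.1) and log2(TPM + 1), and -1.06 without DWYG-H replicate 2 (1.07 without replicate 1), while S100a8 and S100a9 were 0.69 and 0.72 without model replicate 1 and -0.84 and -0.93 without model replicate 2. Between the dose groups, without DWYG-M replicate 2, S100a1 was 0.06, S100a8 0.34, S100a9 0.19, S100a11 -0.16 and S100a13 0.22, and without DWYG-M replicate 1 they were -0.43, -1.36, -1.32, 0.32 and -0.39.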
